A study of Danio rerio with 3 samples.

Results

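The liver secretes most of the complement and coagulation proteins of plasma, and 35 of their genes were followed in the liver of zebrafish larvae on a control diet, a high-cholesterol diet, and that diet with berberine. They were listed by name and found through the annotation of the probes. Of the 35 genes, 25 matched a named probe of the array and 23 were measured on every array, out of 27295 genes compared. AB strain zebrafish larvae were fed from 5 to 15 days post-fertilization (dpf). The control group received the larval food AP100 at 30 mg/100 fish/day. The high-cholesterol diet (HCD) group received 180 mg AP100/100 fish/day with 4% cholesterol, so the amount of food differed from the control as well as the cholesterol. The third group received the HCD together with 5 μM berberine (BBR), a plant alkaloid. Each group had 1 single-colour array of liver RNA, and how many livers went into an RNA sample is not given in the sources used here. Without replicate arrays no test between groups exists, and P values are left out.

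Complement is a chain of plasma proteases that is opened by lectins, by antibody, or by the spontaneous turnover of C3. All routes cleave C3, which marks microbes for uptake, and the late components build a pore called the membrane attack complex. Coagulation is a parallel chain of vitamin K-dependent zymogens that ends with thrombin cutting fibrinogen into fibrin, and plasmin dissolves the clot. Serine protease inhibitors restrain both chains, and several of these proteins are acute-phase proteins, whose production by hepatocytes changes in inflammation.

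A level below is the log2 processed intensity of a probe minus the 75th percentile of all probes on its array, so a level of 0 is that percentile. A difference is the level on the first array named minus that on the second, and a difference of 1 is 2-fold. The control and HCD + BBR arrays lay on slide 1 and the HCD array on slide 2. Diet and slide cannot be told apart in HCD against control, nor BBR and slide in HCD + BBR against HCD, whereas HCD + BBR against control lies within slide 1. The arrays of slide 1 were unlike in quality, with 1510 spots marked as outliers on the control array and 20 on the HCD + BBR array. The HCD array had 1665. Copies of a probe had an SD of 0.21 on the control array and 0.11 on the HCD + BBR array. The signal was well above background at 89.9%, 88.5%, and 92.3% of the spots on the control, HCD, and HCD + BBR arrays. All 23 measured genes were well above background on all 3 arrays, and 10 of the 23 were among the brightest 10% of genes by mean level. The 3 comparisons share arrays, so their values for a gene are not independent. In whole tissue, fewer cells of a type and less RNA per cell cannot be told apart.

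On the HCD array, 19 of the 23 genes were higher than with the control diet, against 37.8% of all genes. The median difference was 0.38, with an interquartile range of 0.01 to 0.76, and the median over 24563 genes was -0.16. At least 2-fold higher were 3 of the 23 genes, namely *masp2*, *cfb*, and *cfh*, where 3.69% of all genes and 1.5% of the brightest 10% were past that fold. None was at least 2-fold lower, where 4.08% of all genes and 0.549% of the brightest 10% were. With HCD + BBR against control, the comparison within 1 slide, 20 of the 23 genes were higher, against 46.2% of all genes. The median difference was 0.49 and that of all genes was -0.03. At least 2-fold higher were 4 of the 23 genes, namely *c3a.1*, *cfb*, *cfh*, and *f7i*, where 3.81% of all genes and 1.54% of the brightest 10% were. None was at least 2-fold lower, where 1.28% of all genes and 0.33% of the brightest 10% were. The 7 measured complement genes had a median of 0.79 in HCD against control and 0.65 in HCD + BBR against control. All 7 were higher in both by the probe used. Of these, *c6* was higher by only 0.01 with HCD, and the second probe of *masp2* was lower in both. The complement gene *c8g* was left out for an outlier mark, and had -1.40 and -1.72 with that spot kept. The other 16 of the 23 genes had medians of 0.15 and 0.44, and 12 and 13 of them were higher.

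**Figure D1:**
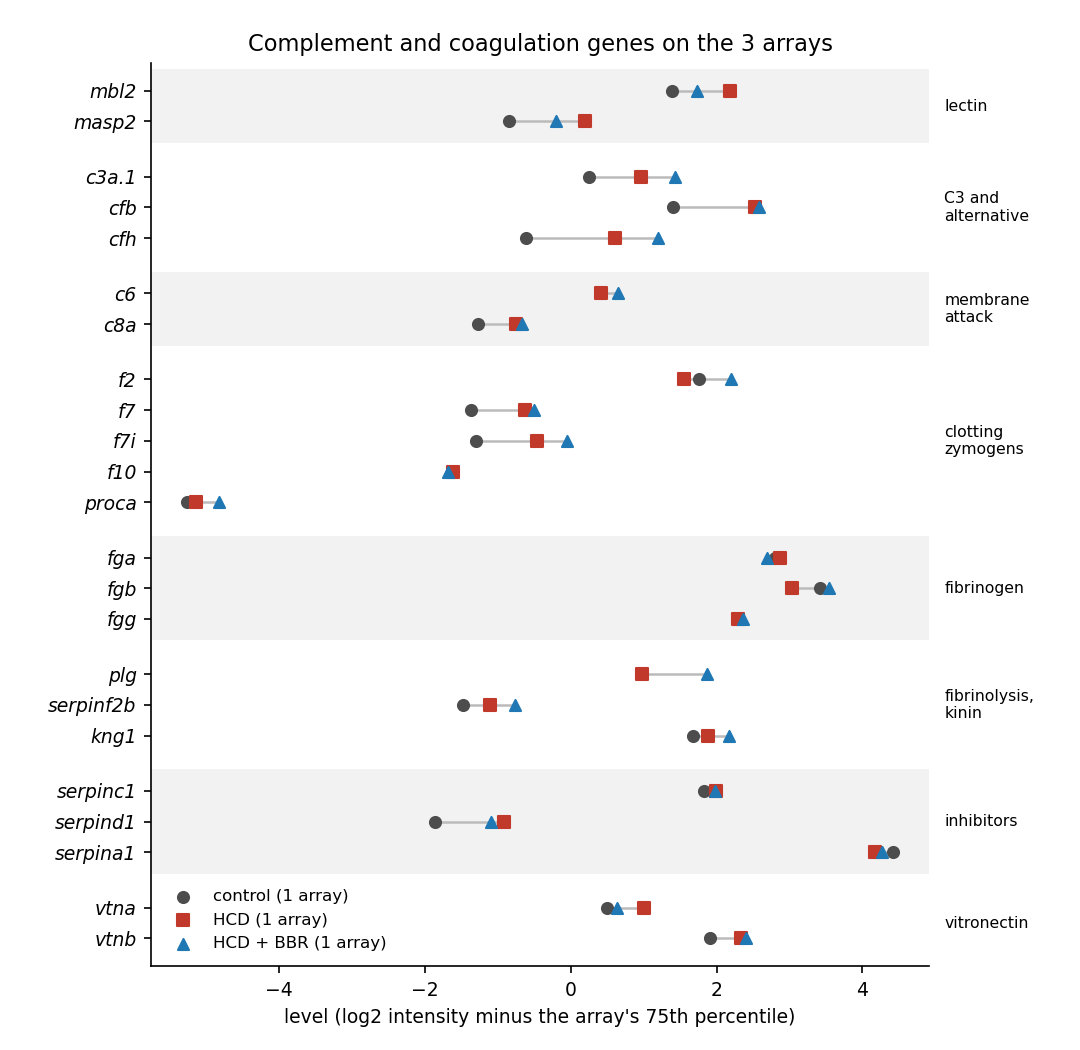
Level of each of the 23 measured genes on the 3 arrays, as log2 intensity minus the 75th percentile of the array, grouped by role. Each point is 1 array and the grey line spans the range of the gene. The control array (circle) is the lowest of the 3 for 18 genes, and the widest gap is that of *cfh*, from -0.61 to 1.19.

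The error of a single array was gauged by copies of a probe, given with the processing, and here by other probes of the same gene. Over genes with several probes, the SD of the difference between probes of a gene was 0.31 in HCD against control, 0.33 in HCD + BBR against HCD, and 0.29 in HCD + BBR against control. Beyond that SD, 12 of the 23 genes were higher and 1 was lower in HCD against control, and the other 10 lay within it. In HCD + BBR against control, 15 were higher, none was lower, and 8 lay within it. Among all genes, 18.4% and 22.1% were higher by more than the SD in these comparisons, and 36.7% and 23.6% were lower. This SD leaves out the spread between animals, extractions, and hybridizations. For the 15 listed genes that had several probes, this SD was 0.56 in HCD against control and 0.43 in HCD + BBR against control. Both were above the SD of all genes because of *masp2*, and probes of the other listed genes lay closer together. The 2 probes of *masp2* gave 1.05 and -1.88 in HCD against control, and 0.65 and -1.36 in HCD + BBR against control. Of the 21 further probes of the 15 genes, 14 were on the same side of 0 as the probe used in HCD against control. In HCD + BBR against control, 18 of the 21 were.

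Of the lectin route, *mbl2* and *masp2* were measured. Mannose-binding lectin, the product of *mbl2*, recognizes sugars on microbes, and its level was 1.39 with the control diet, 2.18 with HCD, and 1.73 with HCD + BBR. A further probe of *mbl2* gave a difference of 0.65 between HCD and control, beside 0.79 for the probe used. The protease MASP-2 travels with the lectin and cleaves C4 and C2. Its gene *masp2* had levels of -0.85, 0.20, and -0.20 in the same order of arrays, which made it 2.06-fold higher with HCD than control. The probes of *masp2* disagreed, since its dimmer probe, also well above background on all 3 arrays, had levels of -4.36, -6.24, and -5.72 and was lower by 1.88 with HCD. The direction of *masp2* therefore depends on the probe.

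The widest differences were among the genes of C3 and the alternative pathway, the amplification loop of complement. Factor B, from *cfb*, forms the C3 convertase of that loop, and its level was 1.40 with the control diet, 2.52 with HCD, and 2.58 with HCD + BBR. It was thus 2.18-fold higher with HCD and 2.27-fold higher with HCD + BBR than control, while the arrays with HCD differed by only 0.06 from each other. Another probe of *cfb*, with an outlier mark on the HCD array, gave 0.98 and 1.58 against control. Factor H, from *cfh*, is the plasma regulator that dismantles the same convertase. Its level was -0.61 with the control diet, 0.60 with HCD, and 1.19 with HCD + BBR, or 2.32-fold and 3.48-fold higher than control, and it had 1 usable probe. Of all genes, 2.36% and 0.957% differed by at least as much in that direction. The genes of the activator and of the restraint of the loop were thus both higher on the arrays with HCD.

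C3 is the hub of all 3 routes, and zebrafish carry several copies of its gene. For *c3a.1*, the level was 0.25 with the control diet, 0.96 with HCD, and 1.42 with HCD + BBR, so it was 1.65-fold and 2.26-fold higher than control. A second usable probe of *c3a.1* gave 1.05 and 1.11 for the same differences, beside 0.72 and 1.18 for the probe used. Between HCD + BBR and HCD, however, the second probe gave 0.06 where the first gave 0.46. The gene had 2 brighter probes with an outlier mark. The probe marked on the control array gave -0.34 for HCD against control, the opposite direction, and 0.80 for HCD + BBR against control, and the probe marked on the HCD array gave 0.72 and 1.06. Signal from related C3 genes cannot be told apart here, because the probe sequences were not analysed. The median over these 3 genes was 1.12 in HCD against control and 1.18 in HCD + BBR against control.

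The membrane attack complex was represented by *c6* and *c8a*, and differences were smaller there. *c8a*, a chain of component C8, had levels of -1.28, -0.74, and -0.67 on the control, HCD, and HCD + BBR arrays. The level of *c6*, a component that joins the complex before C8, was 0.41, 0.42, and 0.65. A dim further probe of *c6* was lower by 0.40 with HCD, and another one was higher by 0.03. The only probe of *c8g* was marked as an outlier on the control array. With that spot kept, *c8g* was the sole gene of the list at least 2-fold lower, with levels of -3.00, -4.40, and -4.72.

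**Figure D2:**
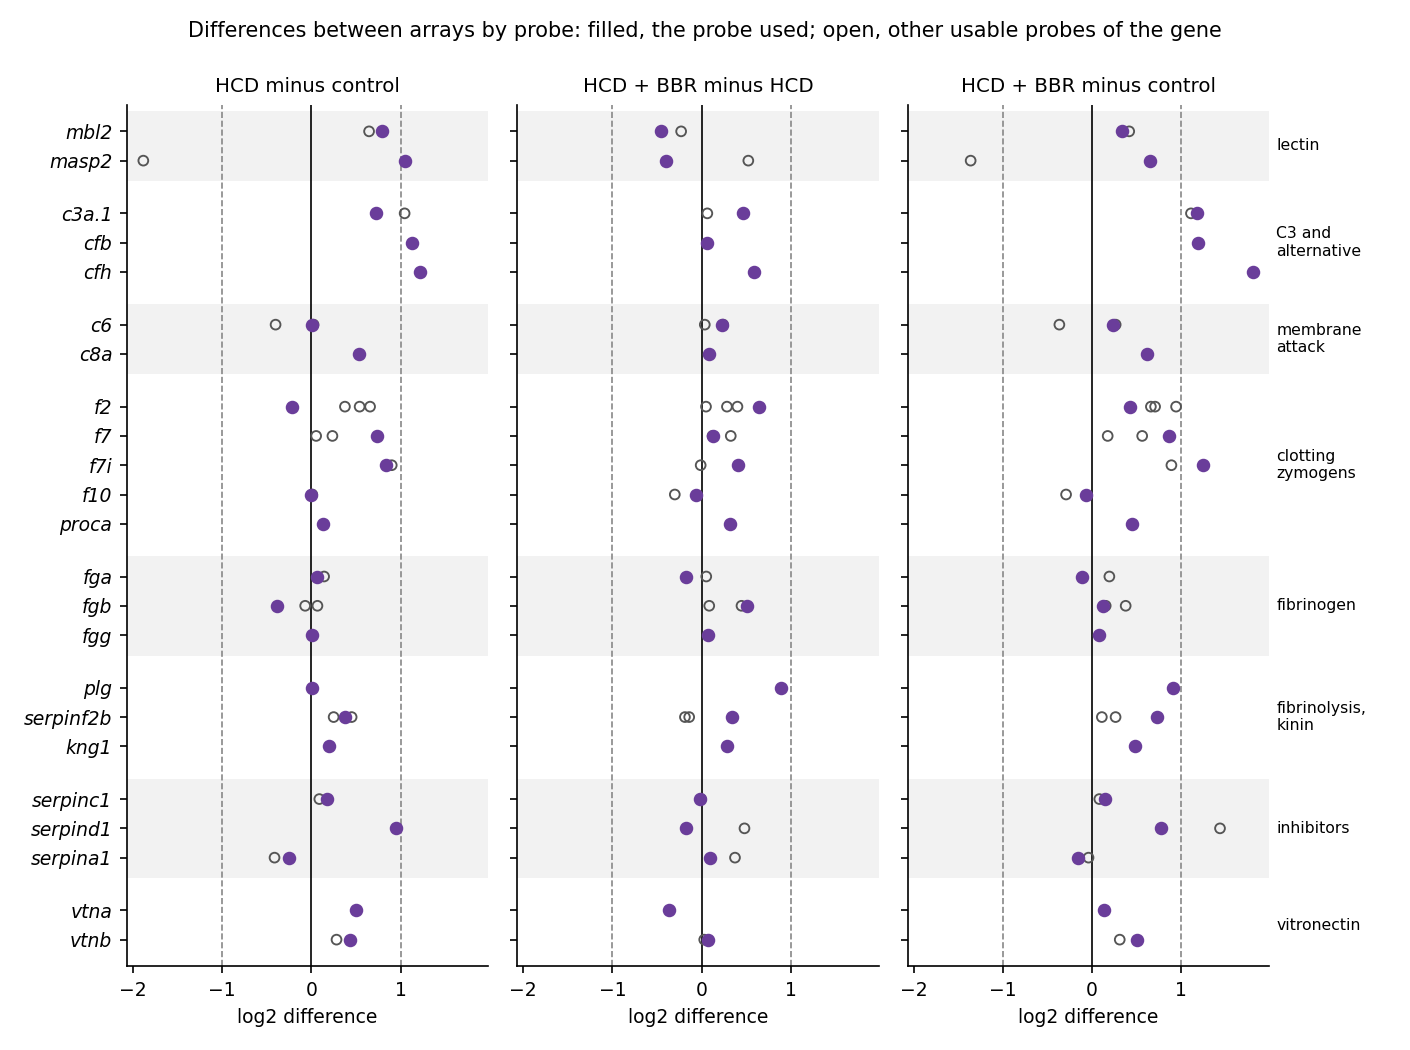
Log2 difference of each gene in the 3 comparisons, with the probe used filled and other usable probes of the gene open. Dashed lines mark 2-fold in each direction. The *masp2* probes lie on opposite sides of 0 in all 3 panels, and those of *f2*, among others, do so in the first panel. Of 15 genes with several usable probes, 10, 10, and 12 had every probe on the same side of 0 in the 3 panels.

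Among the zymogens of clotting, *f7i* had the widest difference by the probe used. Factor VII starts clotting together with tissue factor, and zebrafish have a relative, factor VIIi, that acts as an inhibitor of the same step. The level of *f7i* was -1.30 with the control diet, -0.46 with HCD, and -0.06 with HCD + BBR. This was 1.79-fold and 2.36-fold higher than control, and a further probe gave differences of 0.90 and 0.89. *f7* had levels of -1.37, -0.63, and -0.50, although its other probes differed less, by 0.05 and 0.24 between HCD and control. With the mean over all probes, *f7* and *f2* had the same difference of 0.34 between HCD and control. *f10*, the gene of the zymogen that cuts prothrombin, was nearly level at -1.61, -1.62, and -1.68.

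Prothrombin, from *f2*, is the precursor of thrombin. Its level was 1.76 with the control diet, 1.55 with HCD, and 2.19 with HCD + BBR. The probe used was lower by 0.21 with HCD, whereas 3 further probes were higher by 0.38 to 0.66 and a probe with an outlier mark by 1.31, so the direction of *f2* in that comparison depends on the probe. With HCD + BBR against control, all 4 usable probes were higher, by 0.43 to 0.94. *proca*, encoding the anticoagulant protease protein C, had a difference of 0.13 in HCD against control and 0.45 in HCD + BBR against control. Its probe was dim, with levels of -5.27, -5.14, and -4.83 on the control, HCD, and HCD + BBR arrays. The only probe of *f9b*, a gene of factor IX, was an outlier on the control array, and with the spot kept its difference was -0.45 in HCD against control and 0.08 in HCD + BBR against control.

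The 3 fibrinogen chains, which form the fibrin clot and are classical acute-phase proteins, were close to level. *fga* had levels of 2.81 with the control diet, 2.87 with HCD, and 2.70 with HCD + BBR, and *fgg* had 2.28, 2.29, and 2.36. *fgb* was 3.42, 3.03, and 3.54, so the HCD array was lower than control by 0.39. Other probes of *fgb* gave -0.07 and 0.07 for that difference. The median over the chains was 0.01 in HCD against control and 0.08 in HCD + BBR against control.

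Plasminogen, from *plg*, is the precursor of the clot-dissolving protease plasmin. Its level was 0.96 with the control diet, 0.97 with HCD, and 1.87 with HCD + BBR, so that only the array with BBR stood apart. Another probe of *plg*, with an outlier mark, gave differences of -0.14, 1.49, and 1.35 for HCD against control, HCD + BBR against HCD, and HCD + BBR against control. *serpinf2b* encodes an antiplasmin, the inhibitor of plasmin, and had levels of -1.48, -1.10, and -0.76. *kng1* encodes kininogen, from which bradykinin is released, and had levels of 1.68, 1.88, and 2.17. All 3 genes were highest on the HCD + BBR array by the probe used, while further probes of *serpinf2b* gave -0.19 and -0.14 for HCD + BBR against HCD, beside 0.34.

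The protease inhibitors differed among themselves. *serpind1* encodes heparin cofactor II, an inhibitor of thrombin, and had levels of -1.86 with the control diet, -0.92 with HCD, and -1.10 with HCD + BBR. Its second usable probe gave 0.95 and 1.43 against control, while 2 probes with outlier marks gave -0.63 and -0.30 for HCD against control. The latter, marked on the HCD array, was by far the brightest, at 4.85 on the control array. It gave 0.02 for HCD + BBR against control. For HCD + BBR against HCD, the second usable probe gave 0.48, beside -0.18 for the probe used. *serpinc1*, the gene of antithrombin, was higher by only 0.17 with HCD and 0.15 with HCD + BBR than control. *serpina1*, encoding alpha-1-antitrypsin, which protects tissue from neutrophil elastase, was 4.43, 4.18, and 4.27, and was lower on both arrays with HCD than on the control array.

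The vitronectins bind the late complement complex and steady an inhibitor of plasminogen activation. *vtna* had levels of 0.50, 1.01, and 0.64 on the control, HCD, and HCD + BBR arrays, and *vtnb* had 1.91, 2.33, and 2.41. For *vtnb*, a further probe gave 0.28 and 0.31 against control, beside 0.43 and 0.50. Another 10 listed genes matched no named probe and were not analysed here. They were *masp1*, *c4b*, *c5*, *c7a*, *c8b*, *c9*, *cfi*, *f5*, *a2ml*, and *hp*, so factor V, C4, C5, and most of the membrane attack complex are not covered. From the alpha-2-macroglobulin family of broad protease inhibitors, *a2m2e*, *a2m3b*, and *a2m3g* were looked up after the values were seen. Their differences in HCD against control were 0.62, -0.46, and -0.99.

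With BBR added to the HCD, the median of the genes was close to that of the array as a whole. Between HCD + BBR and HCD, 16 of the 23 genes were higher, against 59.4% of all genes, and 7 genes were higher and 3 lower by more than the SD between probes, where 30.7% and 13.6% of all genes were. None of the 23 genes was at least 2-fold higher, where 4.53% of all genes and 0.44% of the brightest 10% were, and none was at least 2-fold lower, where 1.32% and 0.33% were. The median difference between HCD + BBR and HCD was 0.09, and that of all genes was 0.10. For 13 genes the levels ran from control through HCD to HCD + BBR, low to high. For 5 genes, *mbl2* and *masp2* among them, the HCD array was the highest and the control array the lowest. *plg*, *f2*, *cfh*, and *fgb* had differences of 0.89, 0.64, 0.59, and 0.51 in favour of HCD + BBR over HCD. Further usable probes gave 0.05 to 0.40 for *f2*, and 0.08 and 0.45 for *fgb*. At the other end, *mbl2*, *masp2*, and *vtna* had -0.45, -0.40, and -0.37. A further probe of *mbl2* gave -0.23, while that of *masp2* gave 0.52, the opposite direction. Scaling to the median of each array lowered every gene alike by 0.14, which put the median of the 23 genes at -0.05 and that of all genes at -0.04.

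**Figure D3:**
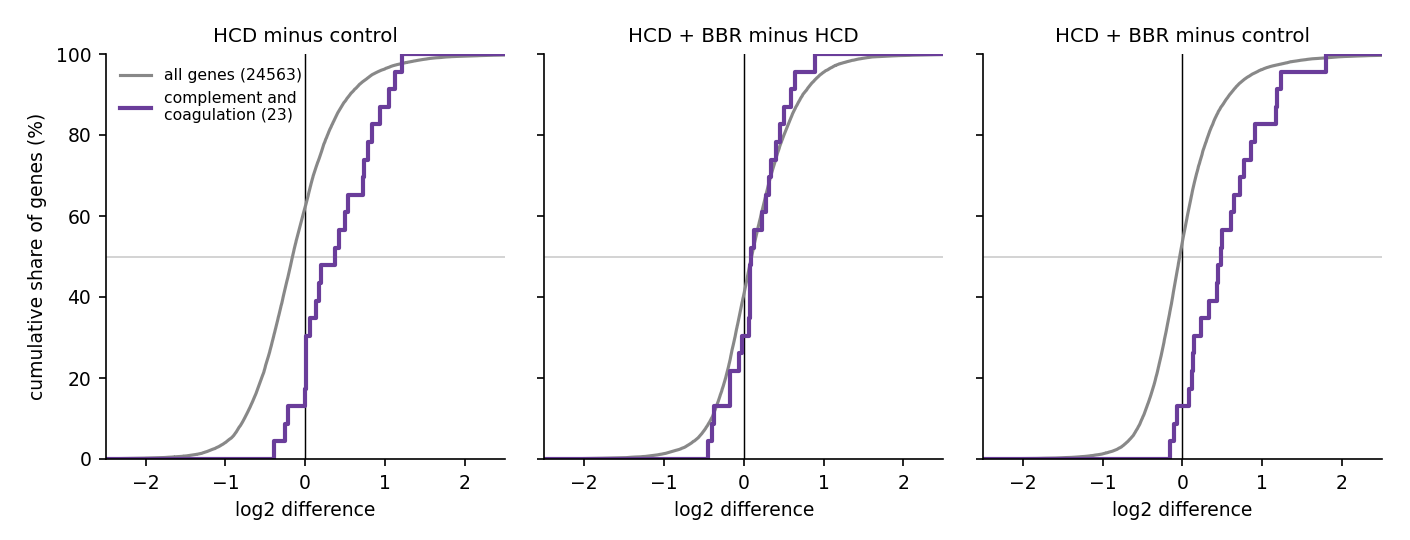
Cumulative share of genes (%) against the log2 difference, for the 23 genes (purple) and for all genes measured in each comparison (grey), 24563 of them in the first panel. The purple curve lies to the right of the grey one over most of its length in both comparisons with control, with medians of 0.38 and 0.49, and runs along it in HCD + BBR minus HCD.

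Further genes of the pathways were described through lists drawn up from textbook membership. The lists were chosen with earlier results of these data known, so they are not independent support. Of 31 other complement genes, 20 were measured. At least 2-fold higher than control were 6 with HCD, against 3.69% of all genes, and 7 with HCD + BBR, against 3.81%. None was at least 2-fold lower in either, where 4.08% and 1.28% of all genes were. The medians of the list were 0.48 and 0.88, and those of all genes -0.16 and -0.03. Among these genes, *c1r* and *cfbl* were well above background on 2 arrays only, so their folds against control are lower bounds. *cfhl1* and *cfhl2*, relatives of factor H, had the highest differences in HCD against control. *cfhl1* had levels of -3.57 with the control diet, -0.95 with HCD, and -1.48 with HCD + BBR, and *cfhl2* had -3.42, -1.23, and -1.56, which made them 6.17-fold and 4.56-fold higher with HCD. Genes of the C1 complex, which opens the classical route on antibody, were higher as well. *c1s.1*, a protease of C1, was 3.31-fold higher with HCD and 3.64-fold with HCD + BBR than control. Its probe was dim, with levels of -5.90, -4.18, and -4.04 on the control, HCD, and HCD + BBR arrays. *c1qb* and *c1qc* differed less, and were 1.56-fold and 1.23-fold higher with HCD than control. *c1qa*, which encodes a recognition chain of C1 that mammals make largely in macrophages, was 2.09-fold and 3.13-fold higher.

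Of 37 other coagulation and fibrinolysis genes, 19 were measured. At least 2-fold higher with HCD than control were 4 of the 19, against 3.69% of all genes, with a list median of 0.13. With HCD + BBR against control, 3 of 18 genes were so, against 3.81%, with a median of 0.35. The medians of all genes were -0.16 and -0.03. Of the 4, *f13a1a.1* was well above background on 1 array only, so its fold is a lower bound. *f9a*, another gene of factor IX, had levels of -3.54, -2.03, and -2.36 on the control, HCD, and HCD + BBR arrays. *pros1*, for the anticoagulant protein S, and *cpb2*, for a carboxypeptidase that slows the lysis of clots, were named after their values were seen, and were 2.23-fold and 2.31-fold higher with HCD. Of 38 other plasma proteins of liver, 23 were measured. Their medians against control were near level, at 0.04 and 0.21. Single genes in HCD against control ranged from -0.91 for *hamp* to 1.99 for *saa*. Of the 22 that could be compared, 2 were at least 2-fold higher with HCD, against 3.69% of all genes. With HCD + BBR against control, 1 was, against 3.81%. *saa*, the acute-phase protein serum amyloid A, was 3.96-fold higher with HCD and 2.18-fold higher with HCD + BBR than control.

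**Figure D4:**
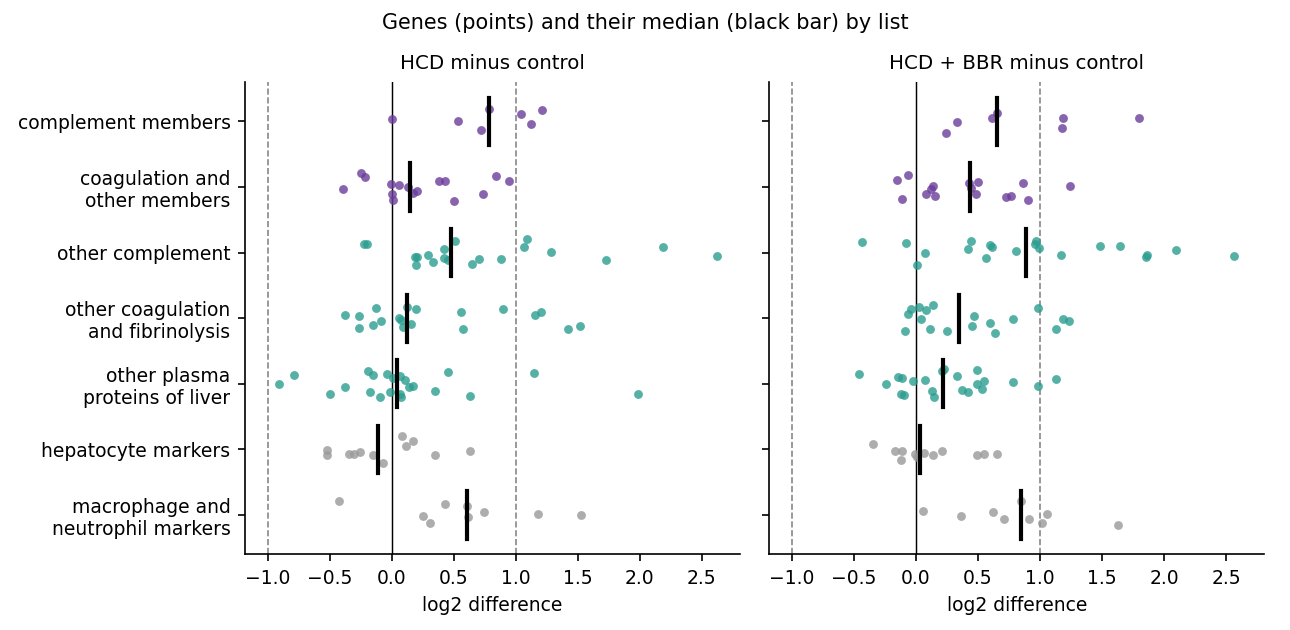
Log2 differences of the genes of each list (points) with the median (black bar), for HCD minus control and HCD + BBR minus control. Dashed lines mark 2-fold. The measured complement genes and other complement genes have medians of 0.79 and 0.48 in the first panel, hepatocyte markers -0.11, and macrophage and neutrophil markers 0.61. Points for genes not well above background on 1 of the arrays are lower bounds.

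The tissue label was set beside marker genes. All 12 measured hepatocyte markers outside the list, from *fabp10a* to *tat*, were well above background on all 3 arrays. Their median difference was -0.11 in HCD against control and 0.03 in HCD + BBR against control, and none was at least 2-fold different in either. A summed level is the log2 of the sum of a list's levels on the linear scale, not a sum of log2 levels. That of the hepatocyte markers was 7.14, 7.07, and 7.28 on the control, HCD, and HCD + BBR arrays. Markers of exocrine pancreas (9 of 9 measured), intestine (9 of 9), skeletal muscle (6 of 6), and skin (6 of 6) were well above background on all 3 arrays too. Of all spots, 88.5% to 92.3% were so. On the control array the summed levels of these 4 lists were 8.61, 6.14, 7.64, and 6.42, beside 7.14 for the hepatocyte markers. The lists differ in length. Genes of these tissues were thus measured beside those of hepatocytes, and those of pancreas and muscle had higher summed levels. Most macrophage and neutrophil markers, like the complement genes, were higher on both arrays with HCD than on the control array. Of 9 measured, all of them well above background on the 3 arrays, 8 were higher with HCD than control, against 37.8% of all genes. All 9 were higher with HCD + BBR than control, against 46.2%. The medians of the 9 were 0.61 and 0.85. Between HCD + BBR and HCD, the markers had a median of 0.40, with 6 of 9 higher. The 7 complement genes had a median of 0.08 there, with 5 higher. Of all genes, 59.4% were higher there, with a median of 0.10. The summed level of the markers was 3.82 with the control diet, 4.47 with HCD, and 4.69 with HCD + BBR. At least 2-fold higher than control were 2 of the 9 with HCD, against 3.69% of all genes, and 3 with HCD + BBR, against 3.81%. *mfap4.1*, a macrophage marker, was 2.26-fold and 3.09-fold higher than control, and the neutrophil gene *mpx* was 2.88-fold and 1.80-fold higher. The marker that went the other way with HCD was *ncf1*, with a difference of -0.43 from control. Erythrocyte markers, of which 7 were measured, had a median of 0.48 in HCD against control and 0.01 in HCD + BBR against control. In each, 4 of 7 were higher, where 37.8% and 46.2% of all genes were. Their summed levels were 4.64, 5.10, and 5.05. The part of these cells in the complement and coagulation differences was not tested.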

How the data were processed

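The authors scanned single-colour Agilent zebrafish V3 4×44K arrays and deposited, per spot, the processed intensity of Feature Extraction (11.5.1.1 per the file headers, 10.7 in the submitters' processing notes), with the spot's median and background intensity and marks for outliers, saturation, and background. Log2 values that the authors made with GeneSpring were deposited as well, and equalled the log2 processed intensity minus the array's 75th percentile to a median of 0.00187.

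Spots without an outlier mark were averaged per probe on the log2 scale, and the array's 75th percentile over 43603 probes was subtracted. Outlier marks fell on 1510 spots of the control array, 1665 of the HCD array, and 20 of the HCD + BBR array, 0 spots were saturated, and 2657 probes had no usable spot on some array. Between copies of a probe the SD was 0.21, 0.21, and 0.11 (log2). The number of arrays, 1 per group, limits the precision. Probes were named by RefSeq accession through a gene table of assembly GRCz12tu, used for names only, which named 26094 probes (59.8%). The probe with the highest mean among those usable on every array stood for a gene. *c6* was found as *c6.2*. A gene entered a comparison if well above background on at least 1 of its arrays, and the other array was then floored at the lowest such signal, which gives a lower bound.

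Called meant a 2-fold difference, the fold of the paper. The paper also set a limit on a corrected P value, which was not applied here. Members and lists were chosen with earlier results of these data known. Named genes were every member at least 2-fold different, the member with the largest difference in each cascade, members whose probes disagreed, and the 6 other pathway genes with the largest differences among those well above background on all arrays. The remaining members were added for their role, and other names were chosen after their values were seen. The 13 alternatives were 4 scalings, the authors' values, normexp, outlier spots kept, 2 filters on dim probes, 2 rules for the probe, and folds of 1.5 and 3. Normexp (offset 50) was run on the median intensity, since the mean was not used here. It was followed by quantile normalization, and outlier spots were kept in it as well. Scalings across arrays were made in R 4.3.3 with limma 3.58.1, and everything else in Python 3.11.15 (numpy 2.4.6, pandas 2.3.3, matplotlib 3.10.9), after a test on simulated data.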

Additional observations from a re-analysis of the deposited data

How the results depend on the processing

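No paired analysis was possible because each group had 1 array and the labels share no replicate numbers. The count of genes at least 2-fold higher in HCD against control was 3, and it was 5 with normexp, 1 with the second-brightest probe (15 genes), 8 at 1.5-fold (9.51% of all genes), and 0 at 3-fold (1.05%). In HCD + BBR against control it was 4, and it was 2 with the second-brightest probe, 10 at 1.5-fold (10.2% of all genes), and 1 at 3-fold (1.3%). In HCD + BBR against HCD it was 0, and 3 of 23 at 1.5-fold, where 16.1% of all genes were. The count at least 2-fold lower was 0 in both comparisons with control, and 1 with the second-brightest probe and 1 with outlier spots kept (25 genes). *masp2* in HCD against control turned from 1.05 to -0.42 with the mean of its probes and -1.88 with the second-brightest probe. The median ranged from 0.20 to 0.47 in HCD against control and from 0.27 to 0.53 in HCD + BBR against control over the settings that left the fold as it was. Beyond these, *cfb* and *cfh* stayed at least 2-fold higher in both comparisons with control in all 10 settings that gave them a value, *c3a.1* in 11 of 11 and *f7i* in 10 of 11 in HCD + BBR against control. For *cfb* and *cfh*, with 1 usable probe each, the rules for the probe could not change the value. Filters on dim probes and kept outlier spots left it unchanged too. The marked probe of *cfb* gave 0.98 in HCD against control, short of 2-fold. Of 69 differences by gene and comparison, 45 kept their sign in every setting. The median of all genes shifted by more than 0.1 with quantile normalization (0.11 in HCD against control, -0.12 in HCD + BBR against HCD), cyclic loess (0.14, -0.11), normexp (0.12, -0.11), and scaling to the array median (-0.14 in the latter). In HCD against control, *f2* turned from -0.21 to 0.34 with the mean of its probes and 0.66 with the second-brightest probe. It was 1.06 with normexp and 1.31 with outlier spots kept. *serpind1* turned from 0.94 to -0.62 with normexp and -0.30 with outlier spots kept. The normexp setting kept outlier spots too, so its values hold both changes, and the part of the background correction was not separated.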
